A study of Mus musculus with 3 samples.

Results

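The transcripts described here encode the machinery that takes secretory and membrane proteins into the endoplasmic reticulum (ER), folds them there and adds their first sugars. They were chosen as a fixed list of 45 gene symbols, of 25410 symbols in the files, and were grouped as 15 chaperones, 10 disulfide isomerases and oxidases, 9 translocon genes, 6 oligosaccharyl transferase subunits and 5 signal peptidase subunits. All 45 symbols were found. Expression was read from 3 RNA-seq libraries of rRNA-depleted RNA (replicates 1, 2 and 3, biological per the series' design text) of IDG-SW3, a mouse cell line that passes from late osteoblast to osteocyte-like cells in culture. All 3 libraries form 1 group: cells at day 35 of differentiation that had received 100 nM parathyroid hormone (PTH) for the last 24 h. Vehicle-treated cells were not analysed here, so no effect of PTH was measured. Genes are therefore compared with set levels and with one another inside these libraries. IDG-SW3 is a single immortalized line whose T antigen is kept on by interferon-gamma during expansion and is shut off at body temperature in osteogenic medium, which here contained ascorbic acid and beta-glycerol phosphate.

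A protein bound for secretion is threaded through the Sec61 channel while or after it is made, and signal peptidase removes its leading peptide. The oligosaccharyl transferase attaches glycans to asparagines, BiP (Hspa5), GRP94 (Hsp90b1) and the lectins calreticulin and calnexin hold the chain while it folds, and protein disulfide isomerases join its cysteines. Osteoblasts and osteocytes lay down collagen and other matrix proteins, all of which take this route. When unfolded protein builds up, the unfolded protein response (UPR) raises many of these genes through the transcription factors ATF6, XBP1 and ATF4, of which ATF6 and XBP1 bind the ER stress element (ERSE) in promoters.

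The ERSE was searched for in the promoters of the members because it is the shared feature that ties many of them to one response. Since it was chosen as an element already linked to such genes, the shares given here and below describe the members and test nothing. A promoter here is the stretch from 250 bases before to 50 after the annotated gene start, taken from RefSeq (build GRCm38.p6), and 35 of the 45 members had one. The ERSE, spelled CCAAT, then 9 bases of any kind, then CCACG, on either strand, was present in the promoters of 7 of these 35 (20%). Over all genes in the same table it was present in 37 of 27025 (0.137%), and in 0.119% of the 32851 promoters of that length. The members that held it were Hspa5, Hsp90b1, Dnajc3, Creld2, Calr, Canx and Pdia6, that is 6 of 12 chaperones and 1 of 7 disulfide isomerases with a promoter sequence. It was in 0 of 7 translocon, 0 of 6 oligosaccharyl transferase and 0 of 3 signal peptidase promoters. Each element is shown with 20 bases on either side, 5′ to 3′ along the gene's own strand, with the CCAAT and CCACG parts in capitals. Where the element lies on the opposite strand, the capitals read CGTGG and ATTGG.
Hspa5 (chr2:34772005-34772063, plus strand): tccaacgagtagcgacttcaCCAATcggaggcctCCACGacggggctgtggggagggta
Hsp90b1, far element (chr10:86705618-86705676, minus strand): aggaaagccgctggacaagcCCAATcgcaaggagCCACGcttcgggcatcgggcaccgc
Hsp90b1, near element (chr10:86705513-86705571, minus strand): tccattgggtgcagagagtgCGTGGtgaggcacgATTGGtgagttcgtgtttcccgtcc
Dnajc3 (chr14:118937807-118937865, plus strand): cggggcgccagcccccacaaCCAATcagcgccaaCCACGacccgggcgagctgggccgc
Creld2 (chr15:88819500-88819558, plus strand): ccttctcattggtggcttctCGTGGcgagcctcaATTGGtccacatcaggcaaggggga
Calr (chr8:84847055-84847113, minus strand): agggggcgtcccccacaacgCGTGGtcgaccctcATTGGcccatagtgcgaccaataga
Canx (chr11:50325780-50325838, minus strand): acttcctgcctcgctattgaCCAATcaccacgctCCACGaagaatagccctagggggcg
Pdia6 (chr12:17266471-17266529, plus strand): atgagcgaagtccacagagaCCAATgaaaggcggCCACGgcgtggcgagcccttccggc

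In Hspa5 the element began 65 bases before the gene start, the closest of the 8 elements, and in Hsp90b1 the far element began 212 bases before it. Hsp90b1 was the only member with 2 elements, 1 on each strand. When the final base of the element was not required, Pdia3 and Pdia4 were added, which made 9 of 35 (25.7%) against 116 of 27025 genes (0.429%). These 2 windows are shown in the same way, the Pdia3 window ending at the gene start, because both genes belong to the protein disulfide isomerase family that Pdia6 also belongs to.
Pdia3 (chr2:121413853-121413901, plus strand): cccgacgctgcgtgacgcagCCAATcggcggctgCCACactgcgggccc
Pdia4 (chr6:47813582-47813639, minus strand): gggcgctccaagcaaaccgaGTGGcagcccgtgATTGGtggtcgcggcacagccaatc

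The related element ERSE-II (ATTGG, 1 base of any kind, CCACG, either strand) was found in the window of 1 member, Dnajb11, just after the gene start, and in 0.0444% of all genes. The UPR element TGACGTGG, on either strand, was found in 1 member, Txndc5, and in 0.714% of all genes. Both share the CCACG part, or its reverse complement, with the ERSE. Such a match is a description of these letters. Whether a factor binds there was not measured, and a promoter without a match may hold the element outside this window.

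**Figure D1:**
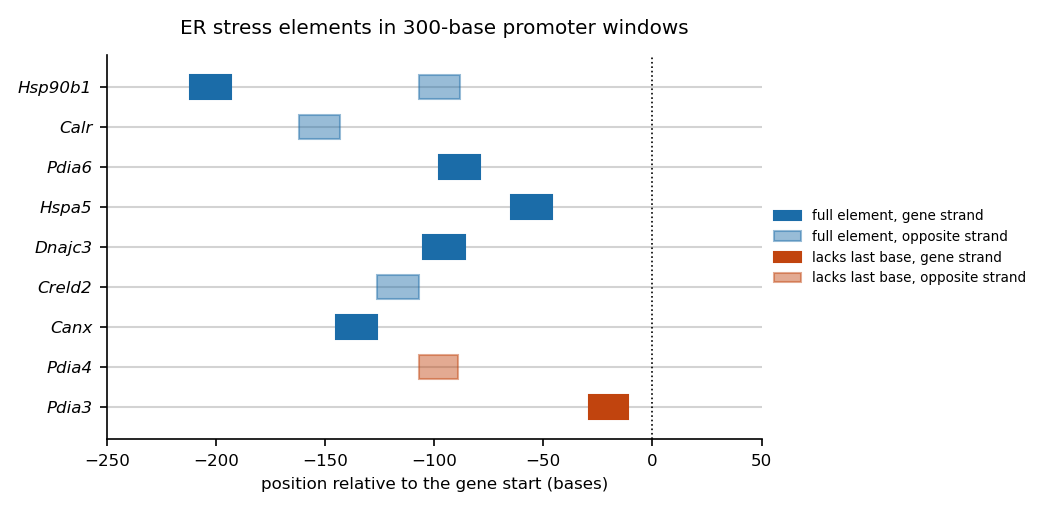
Position of each ER stress element within the promoter window (horizontal axis, bases relative to the gene start, dotted line) for the 9 members with a full element (blue) or one that lacks its last base (red); pale boxes lie on the strand opposite to the gene. Hsp90b1 carries 2 full elements, and the Hspa5 element is the full element nearest to its gene start.

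Whole numbers for 30795 transcript rows were deposited for each library, and they were read as counts although RPKM stands in the file names. They summed to 35195518, 37299517 and 45240005 in replicates 1, 2 and 3, and rows of a symbol were summed. RPKM (reads per kilobase of transcript and per 1000000 counts) was computed here from these counts and from annotated transcript lengths, and every level below is an RPKM that rests on that reading. Values are mean ± SD with n = 3. Of the members, 39 symbols had 1 row in the files and 6 had several: Hspa5, Hspa13, Canx, Sec61g, Ssr4 and Dad1. Among protein-coding symbols with 1 row, 2.65% of 17229 were listed at 0 in all libraries, against 31.8% of 3218 with several rows. A low value or a 0 of these 6 members is therefore not read as their true level. A single line in culture was profiled in bulk, so fewer cells of a type and less RNA per cell cannot be told apart.

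The labelled cell type was checked with marker lists. Of 13 osteoblast and osteocyte markers, 8 were above 1 RPKM and 6 above 100 RPKM, led by Ibsp at 2052 ± 415 and Col1a1 at 488 ± 42.5. Of all genes tested, 42.8% were above 1 RPKM and 2.95% above 100 RPKM, shares that also stand beside the lists below. Sp7 was low at 2.11 ± 0.636 RPKM. Runx2, at 0.491 ± 0.0185 RPKM, was the only marker of this list called below 1 RPKM. It has 3 rows, so this is not read as its true level. Genes of the list known from osteocytes went both ways: Pdpn stood at 156 ± 27.6 and Phex at 9.05 ± 0.940 RPKM, whereas Dmp1, Mepe, Fgf23 and Sost were not resolved from 1 RPKM, with Dmp1 at 0.652 ± 0.547 RPKM and Sost at 2, 0 and 0 counts. Of 7 adipocyte markers 2 were above 1 RPKM, Fabp4 at 9.72 ± 3.19 and Adipoq at 1.88 ± 1.16, and the summed level of the list was 12.3, 11.3 and 17.3 RPKM. Summed levels were 3.97 to 5.50 for 5 chondrocyte markers (1 above 1 RPKM), 0.250 to 0.580 for 5 muscle markers (0 above), 0.438 to 1.53 for 5 macrophage markers (0 above) and 2.86 to 3.27 for 5 endothelial markers (1 above). Of 4 plasma cell markers in the files only Sdc1 was above 1 RPKM, at 304 ± 26.3, a gene that other cell types also express, while Cd79a had 0, 10 and 0 counts. Plin1 (adipocyte), Itgam (macrophage), Pecam1 and Emcn (endothelial) were listed at 0, all of them symbols with several rows.

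The ER machinery was expressed almost throughout. Of the 45 members, 42 were above 1 RPKM by edgeR's quasi-likelihood test (Benjamini-Hochberg adjusted over all 20996 genes tested, threshold 0.05), against 42.8% of all genes tested. None was called below 1 RPKM, and the remaining 3, Canx, Hspa13 and Sec61g, were listed at 0 in all 3 libraries and are symbols with several rows. Against the higher level of 100 RPKM, 15 members were above (14 with 1 row), 24 were below (22 with 1 row) and 3 were unresolved, where 2.95% of all genes tested were above and 96.3% below. The median level was 65.1 RPKM over the members and 72.6 over those with 1 row, beside 0.720 over all genes tested and 0.878 over those with 1 row. With 3 libraries of 1 group, each edgeR p-value rests on a spread between libraries that is estimated in part from all genes tested. It does not measure the spread of a single gene alone. Nor does it cover a bias of length, counting or sequence that all libraries share.

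The members together held 2.41%, 2.43% and 2.37% of all counts in replicates 1, 2 and 3. Chaperones held 0.930 ± 0.0388% and disulfide isomerases 0.748 ± 0.0339%, followed by the translocon at 0.472 ± 0.0315%, the oligosaccharyl transferase at 0.165 ± 0.0054% and the signal peptidase at 0.0895 ± 0.0078%. A few genes carried most of this: Hsp90b1, P4hb, Pdia4, Ssr3 and Calr held 58.9%, 60.2% and 57.6% of the members' counts. Within a group the members with 1 row spanned 85.0-fold among chaperones, 538-fold among disulfide isomerases, 34.6-fold in the translocon, 4.01-fold in the signal peptidase and 1.74-fold in the oligosaccharyl transferase.

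**Figure D2:**
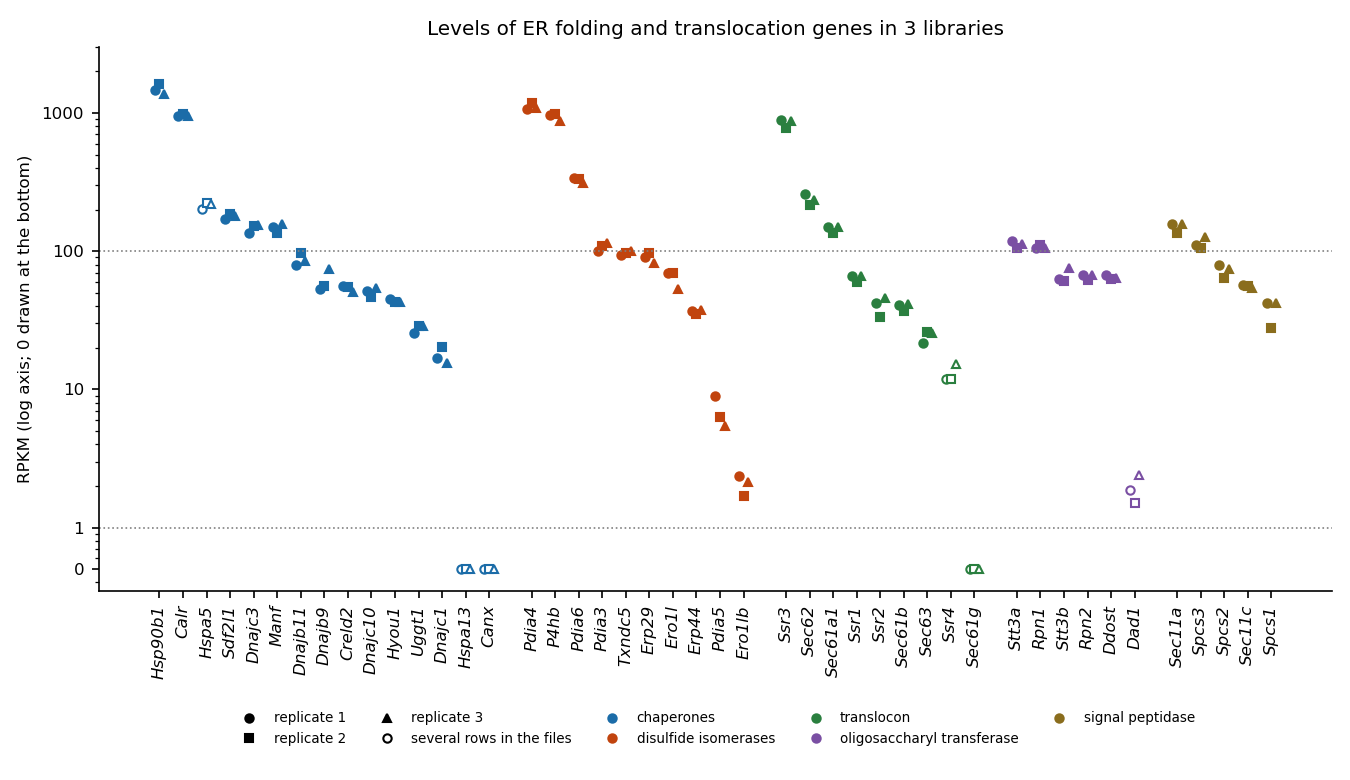
RPKM of each member (vertical log axis, 0 drawn at the bottom) in replicates 1 (circle), 2 (square) and 3 (triangle), coloured by group; open symbols are genes with several rows, and dotted lines mark 1 and 100 RPKM. Chaperones and disulfide isomerases spread over the widest ranges, and the 5 oligosaccharyl transferase genes with 1 row sit between 60.8 and 118 RPKM in all libraries.

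Among the chaperones 6 of 15 were above 100 RPKM and 7 below, where 2.95% of all genes tested were above and 96.3% below. The highest was Hsp90b1, the ER member of the HSP90 family, with 1471, 1624 and 1381 RPKM in replicates 1, 2 and 3, which placed it 38th of all genes with a length. Replicate 2 was the highest for this gene and replicate 3 the lowest, and all 3 lay far above 100 RPKM (log2 3.90 above it, edgeR adjusted p = 5.83e-158). About 13.8% of the 50-base words of its transcripts also occur in neighbouring genes, and 14.7% of its length overlaps the gene 1810014B01Rik on the opposite strand. The use of strand in the counting is not given in the sources used here, so reads of a gene and of a neighbour on the opposite strand cannot be told apart. Hsp90b1 was the reference for this group, because Hspa5 has several rows.

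Calr (calreticulin), a lectin chaperone that holds glycoproteins and binds calcium, followed at 948, 981 and 958 RPKM. It varied least of all members between libraries and was 1.54-fold below Hsp90b1 (log2 −0.63 ± 0.0997, edgeR adjusted p = 2.37e-08), lower in 3 of 3 libraries. Its membrane-bound relative Canx (calnexin) was listed at 0 in all 3 of its rows, so no ratio of the pair was taken.

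Hspa5, which encodes BiP, the HSP70 chaperone that also keeps the UPR sensors inactive, stood at 200.6, 221.7 and 217.5 RPKM from 2 rows, 1 of which was at 0 in every library. It was 6.97-fold below Hsp90b1 (edgeR adjusted p = 4.02e-83), but with several rows neither this level nor this ratio is read as the true one. The mean over its 2 rows in place of the sum put it at log2 0.09 against 100 RPKM, no longer past the test. The HSP70-like Hspa13 was listed at 0 in both of its rows. Hyou1, a large HSP70-related nucleotide exchange factor of BiP, stood at 43.8 ± 1.04 RPKM and was 33.9-fold below Hsp90b1.

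The J proteins, which hand clients to BiP and set off its ATPase, spanned a wide range. Dnajc3 (p58IPK) was the highest at 148 ± 9.96 RPKM, above 100. Dnajb11 (ERdj3) had 78.8, 97.6 and 84.6 RPKM and Dnajb9 (ERdj4) 53.6, 55.6 and 74.2. At the length used here Dnajb9 was lower than Dnajb11 in each library (log2 ratio −0.52 ± 0.31), but with the longest transcript of Dnajb11 the mean ratio was −0.14, less than its spread. The libraries differed, with Dnajb9 high in replicate 3 and Dnajb11 high in replicate 2. The call of Dnajb11 below 100 RPKM (adjusted p = 0.00794) was lost without replicate 1. Dnajc10 (ERdj5), a J protein with disulfide reductase activity, stood at 50.8 ± 3.65. Dnajc1 was the lowest chaperone with 1 row, at 16.9, 20.3 and 15.4 RPKM, or 85.3-fold below Hsp90b1.

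The small soluble members Sdf2l1, Manf and Creld2 differed less from one another than the J proteins did. Sdf2l1, a partner of ERdj3 in keeping chains soluble, stood at 179 ± 6.68 RPKM, and Manf, a secreted BiP-binding factor, at 148 ± 11.7. Both were above 100 RPKM, and Creld2, a disulfide isomerase-like UPR target, was below it at 54.1 ± 2.85. Uggt1, the glucosyltransferase that tags misfolded glycoproteins for another round with calreticulin and calnexin, stood at 27.6 ± 1.83 RPKM, lowest in replicate 1. In all, 12 chaperones (11 with 1 row) were lower than Hsp90b1 and 0 higher, where 99.8% of all genes tested were lower and 0.148% higher.

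The disulfide isomerases held both some of the highest and the lowest members. Pdia4 (ERp72) was highest, with 1068, 1172 and 1093 RPKM. P4hb, the classical protein disulfide isomerase and also the beta subunit of collagen prolyl 4-hydroxylase, had 963, 983 and 867 RPKM, its lowest value in replicate 3. Pdia4 was 1.19-fold above P4hb (log2 0.25 ± 0.0926, edgeR adjusted p = 0.00513) and higher in 3 of 3 libraries, and it was the only member of the group higher than P4hb. This order was not past the test without replicate 1 or with limma on log2(RPKM + 0.1), and it turned to log2 −0.41 with the median length over all annotated transcripts of P4hb, which include short fragments. Of the others, 8 were lower than P4hb. Over all genes tested, 99.6% were lower than P4hb and 0.305% higher.

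Pdia6 (P5), which works with BiP, was the third highest isomerase at 327 ± 12.5 RPKM, 2.86-fold below P4hb. Pdia3 (ERp57), the isomerase that works on glycoproteins held by calreticulin and calnexin, had 100.5, 108.0 and 114.1 RPKM and was unresolved against 100 RPKM (log2 0.10, adjusted p = 0.123). It was 8.95-fold lower than its partner Calr (log2 ratio of Calr over Pdia3 3.16 ± 0.0859), a pair picked after the values were seen. Txndc5 (ERp46) was also unresolved, at 93.9, 96.9 and 100.8 RPKM (log2 −0.04, adjusted p = 0.555). Its transcripts overlap Bmp6 and another gene on the opposite strand over 15.9% of their length.

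Erp29, a thioredoxin-fold protein without the active cysteine pair, stood at 90.04 ± 7.63 RPKM, and Erp44, which retains client proteins at the Golgi and returns them to the ER, at 36.5 ± 1.19. The Erp29 value is uncertain, since 33.9% of its length overlaps Naa25 and Tmem116 on the opposite strand, 36.3% of its 50-base words occur in other genes, and its annotated lengths differ 4.63-fold. Its call below 100 RPKM (adjusted p = 0.0263) was lost without replicate 1 and without replicate 3. Pdia5 was low at 8.98, 6.33 and 5.41 RPKM, and it had the largest spread of all members, being high in replicate 1.

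The ER oxidases that recharge the isomerases differed strongly. Ero1l (Ero1 alpha), the form induced by hypoxia in many cells, had 69.3, 69.1 and 52.9 RPKM, low in replicate 3. Ero1lb (Ero1 beta), best known from the insulin-secreting pancreas, had 2.37, 1.68 and 2.14 RPKM, the lowest of the members with 1 row. Ero1l exceeded Ero1lb 29.5-fold (log2 ratio 4.88 ± 0.36), and their ranges did not overlap. On the log2(RPKM + 1) scale the log2 ratio was 4.40, and with the shortest transcript of each gene it was 3.81.

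The Sec61 channel and its partners were set against Sec61a1, the pore subunit, which had 149, 136 and 149 RPKM. In the translocon group, 5 members (4 with 1 row) were lower than Sec61a1 and 2 higher, where 97.5% of all genes tested were lower and 2.02% higher. Against 100 RPKM, 3 of 9 were above and 5 below, where 2.95% of all genes tested were above and 96.3% below. Sec61a1 overlaps Gm44170 on the opposite strand over 17.3% of its length. Sec61b, a small tail-anchored subunit of the channel, stood at 39.6 ± 2.31 RPKM, and Sec61g, the other small subunit, was listed at 0 in its 3 rows. Sec61a1 exceeded Sec61b 3.64-fold (log2 1.86 ± 0.0095), with nearly the same ratio in each library. That pair was likewise picked after the values were seen. Of the 50-base words of Sec61b, 41.0% also occur in other annotated genes, and what this does to its count was not tested.

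Ssr3, the gamma subunit of the TRAP complex that sits beside the channel, was the highest translocon gene, with 890, 775 and 871 RPKM. It was 5.84-fold above Sec61a1 (log2 2.55 ± 0.0349) and higher in 3 of 3 libraries. Of the other TRAP subunits, Ssr1 (alpha) stood at 63.8 ± 3.81 RPKM and Ssr2 (beta) at 40.3 ± 6.13. Ssr4 (delta) was listed at 13.0 ± 2.0 RPKM from 2 rows, 1 of them at 0, which is not read as its true level. The value of Ssr1 depends on its length, since its annotated transcripts differ 5.80-fold: with the median over all transcripts it came to 326 RPKM and its log2 ratio to Sec61a1 turned from −1.18 to 1.17.

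Sec62 and Sec63 help chains that enter the channel after translation, Sec63 being the J protein that recruits BiP to the exit. Sec62 had 257, 215 and 236 RPKM, the second highest of the group and 1.63-fold above Sec61a1 (edgeR adjusted p = 1.51e-28). Sec63 had 21.6, 26.2 and 25.4 RPKM, the lowest of the members of the group with 1 row. Sec62 exceeded Sec63 9.64-fold (log2 ratio 3.27 ± 0.27) in these libraries, and neither gene has alternative annotated lengths that would change it. An annotated gene on the opposite strand overlaps 12.8% of Sec62.

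**Figure D3:**
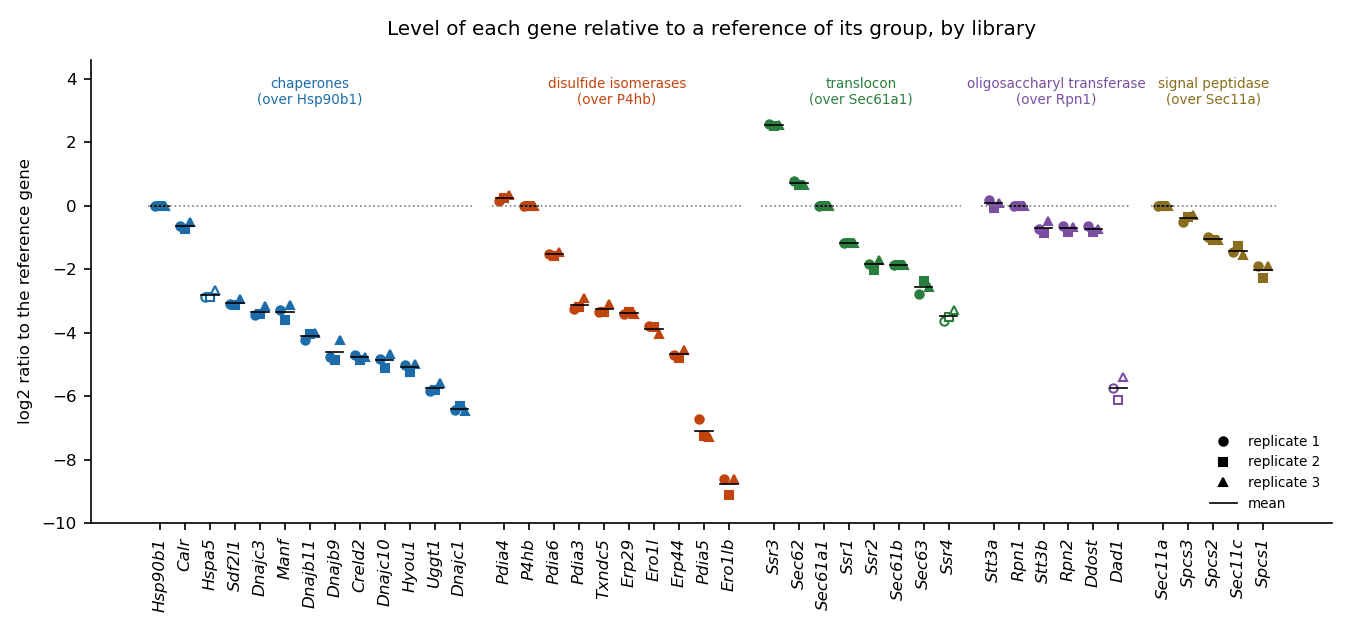
Log2 ratio of each member with counts to the reference gene of its group, taken within each library on RPKM + 0.1 (vertical axis), for replicates 1 (circle), 2 (square) and 3 (triangle); bars are means, and open symbols are genes with several rows. Pdia4, Ssr3 and Sec62 lie above their references in all 3 libraries, and Stt3a lies on both sides of Rpn1.

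Among members with 1 row and at the length used here, the oligosaccharyl transferase group spanned the narrowest range of the 5 groups. This holds neither with Dad1 (2 rows) nor with the shortest transcript of Stt3a. It also covers the listed members only. Of the enzyme's other subunits with 1 row, Ostc at 596 and Krtcap2 at 14.5 RPKM lay outside that range. Rpn1 (ribophorin I), a non-catalytic subunit that helps to bring substrates to the enzyme, had 104.5, 110.9 and 105.9 RPKM and was unresolved against 100 RPKM (log2 0.10, adjusted p = 0.135). Rpn2 had 66.8, 61.7 and 66.9 RPKM and Ddost, the subunit also called OST48, 67.5, 62.5 and 63.6. Both were lower than Rpn1 in 3 of 3 libraries, Rpn2 by 1.64-fold (adjusted p = 2.38e-15) and Ddost by 1.66-fold (adjusted p = 4.78e-15). In this group 4 members were lower than Rpn1 (3 with 1 row, and Dad1 from 2 rows), 0 were higher and 1 was unresolved, beside 96.5% of all genes tested lower and 2.74% higher. Against 100 RPKM, 1 of 6 was above, beside the 2.95% of all genes tested.

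The enzyme has alternative catalytic subunits, Stt3a for glycosylation at the channel and Stt3b for sites that were skipped or are reached after translation. Stt3a had 118, 106 and 113 RPKM and Stt3b 63.3, 60.8 and 75.2, so that the ranges did not overlap. The log2 ratio of Stt3a over Stt3b was 0.76 ± 0.16, or 1.70-fold. Stt3a was not resolved from Rpn1 (log2 0.07, adjusted p = 0.347, edgeR), with replicate 2 below and the others above. The ratio depends on the length used, because the annotated transcripts of Stt3a differ 20.6-fold and include fragments: with the median length over all of them, the log2 ratio over Stt3b was 1.69. The call of Stt3a above 100 RPKM (adjusted p = 0.00905) was lost without replicate 1. Dad1, a small subunit that every form of the enzyme needs, was at 1.860, 1.497 and 2.418 RPKM from 2 rows, which is not read as its true level.

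Signal peptidase consists of a catalytic subunit, Sec11a or Sec11c, with the further subunits Spcs1, Spcs2 and Spcs3. Sec11a had 157, 135 and 158 RPKM and Sec11c 56.6, 56.1 and 53.7, so the ranges of the catalytic pair did not overlap. Sec11a was above Sec11c by log2 1.43 ± 0.15 (2.69-fold), and the edgeR test of Sec11c against Sec11a gave log2 −1.42 with adjusted p = 3.13e-29. With the median length over all transcripts the log2 ratio of Sec11a over Sec11c was 1.79, and with the shortest 1.41. Gm16171 overlaps Sec11a on the opposite strand over 12.1% of its length. Sec11a was lowest in replicate 2, where Sec11c was not.

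Spcs3, whose yeast counterpart is essential, stood at 115 ± 11.5 RPKM, above 100 (adjusted p = 0.00372), a call that was lost without replicate 3. Spcs2 stood at 72.6 ± 8.14. Spcs1 was the lowest, with 42.0, 27.9 and 42.2 RPKM, low in replicate 2, and 19.5% of its length overlaps Glt8d1 on the opposite strand. All 4 were lower than Sec11a and 0 were higher, while 97.5% of all genes tested were lower and 1.91% higher. The difference of Spcs3 from Sec11a was not past the test with limma on log2(RPKM + 0.1), which left 3 lower. In this group 2 of 5 were above 100 RPKM, beside 2.95% of all genes tested. The calls of Dnajb11, Erp29, Stt3a and Spcs3 against 100 RPKM, all close to that level, were each lost with limma and with DESeq2 as well.

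Transcript length bears on many of these orders, since a level per kilobase moves with the length used. The length was the median over transcripts that GENCODE pairs with a curated RefSeq transcript, and 16 members have annotated transcripts whose lengths differ by 1.5 times or more. Besides Stt3a and Ssr1, these include Erp29, Spcs2 (4.00-fold), Dad1 (3.98-fold) and P4hb (3.72-fold). P4hb would stand at 1478 RPKM with the median over all transcripts and at 3485 with the shortest. Spcs2 would stand at 241 RPKM with the median over all transcripts, above Sec11a by log2 0.26 in place of 1.05 below it. The order of Calr, Hsp90b1, Pdia3, Pdia4, Sec61a1, Sec61b, Sec62 and Sec63 does not depend on this choice, as each has annotated transcripts of 1 length.

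**Figure D4:**
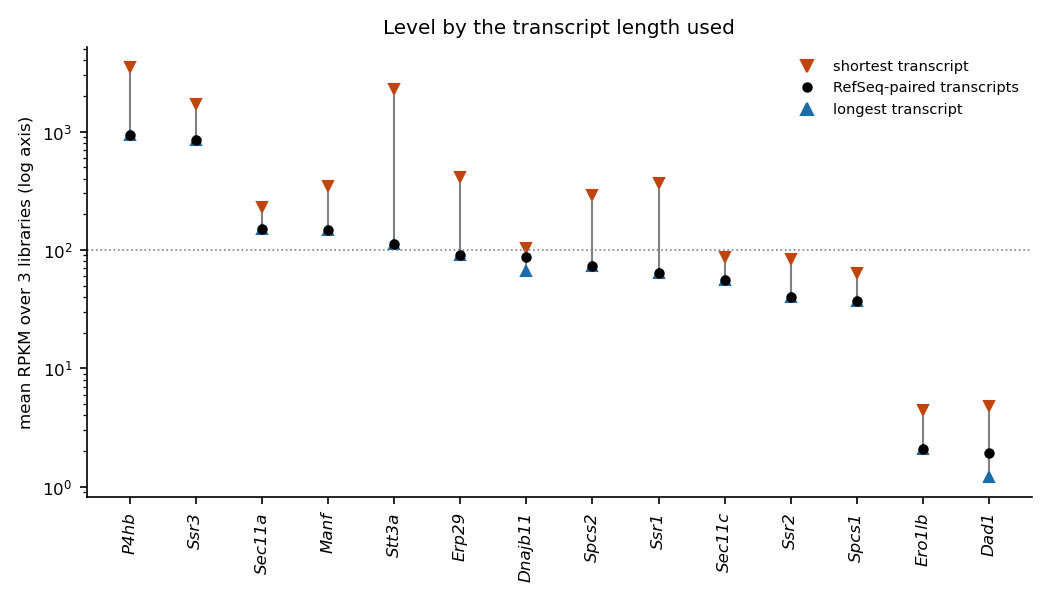
Mean RPKM over the 3 libraries (vertical log axis) of the 14 members above 0 whose longest and shortest annotated transcripts differ by 1.5 times or more, computed with the shortest (red), the RefSeq-paired (black) and the longest (blue) transcript length; the dotted line marks 100 RPKM. Stt3a moves from 112 to 2313 RPKM with its shortest transcript.

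The members varied little between libraries. The SD of log2(RPKM + 0.1) over the 3 libraries had a median of 0.102 over the 42 members with counts, from 0.0254 for Calr to 0.37 for Pdia5. The median was 0.338 over all genes tested and 0.110 over the 619 genes above 100 RPKM, so the members' spread was near that of other well-expressed genes. With a pseudocount of 1 the median over all genes tested was 0.148 and that of the members 0.101. After Pdia5, the largest spreads were those of Spcs1 (0.34), Dad1 (0.33) and Dnajb9 (0.26). Replicate 2 was the lowest library for 6 of 8 translocon genes, 5 of 6 oligosaccharyl transferase genes and 4 of 5 signal peptidase genes, while it was the highest for 7 of 13 chaperones. The translocon sum was 1477, 1294 and 1450 RPKM and the signal peptidase sum 445, 388 and 456 in replicates 1, 2 and 3, and the chaperone sum was 3404, 3645 and 3400. How often each library was lowest or highest over all genes tested was not counted, so this pattern is not read as particular to these groups. Since each library is 1 sample, no test of it was possible.

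The genes that sense and relay ER stress were also expressed. All list medians below include any symbols with several rows and stand beside the 0.720 RPKM of all genes tested. Of 16 ER stress sensors and transcription factors, 14 were above 1 RPKM and 2 above 100, with a median of 24.8 RPKM. Atf4, the factor that rises when translation is restrained, stood at 299 ± 9.83 RPKM and Xbp1, the target of IRE1 splicing, at 110.0 ± 8.41. Gene-level counts do not tell spliced from unspliced Xbp1. Of 22 genes of ER-associated degradation, 20 were above 1 RPKM and 5 above 100 (median 19.9), led by Vcp, the ATPase that extracts proteins for the proteasome, at 224 ± 10.8 and Derl1 at 156 ± 13.7.

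Genes that act before and beside the channel were also measured. All 10 genes of the signal recognition particle and its receptor were above 1 RPKM and 3 above 100 (median 39.6), but the highest, Srp54a at 170 ± 17.4 and Srp54b at 163 ± 15.3, are near-identical copies whose shared reads could have been counted for either. Of 5 other translocon partners, 4 were above 1 RPKM and 1 above 100 (median 50.1), with Tram1 at 114 ± 21.5 and Tmco1 at 71.7 ± 8.33. Of the other oligosaccharyl transferase subunits, 5 were in the files and all 5 were above 1 RPKM, 1 of them above 100 (median 22.5): Ostc, which ties Stt3a to the channel, stood at 596 ± 70.8 RPKM, and Tusc3, an oxidoreductase subunit of the Stt3b form, at 67.6 ± 11.9 from 2 rows. Of 5 genes in the files for tail-anchored protein insertion, 4 were above 1 RPKM and 0 above 100 (median 8.37), with Asna1 at 19.8 ± 2.17 and Sgta at 18.4 ± 2.13.

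Downstream of the members, 5 of 6 genes of glycan trimming were above 1 RPKM and 0 above 100 (median 30.9), led by Lman1, a cargo receptor for glycoproteins, at 46.5 ± 2.20 from 2 rows and Ganab, the catalytic subunit of glucosidase II, at 36.4 ± 2.99. Of 19 other ER prolyl isomerases, thioredoxin proteins and oxidases, 17 were above 1 RPKM and 6 above 100 (median 40.8), with the cyclophilin Ppib at 551 ± 41.2 and Fkbp9 at 393 ± 32.2. Of 9 genes of collagen folding (5 with 1 row), 6 were above 1 RPKM and 1 above 100 (median 10.1), and 2 with several rows were listed at 0. Serpinh1 at 4.35 ± 0.599 and Lepre1 at 0.169 ± 0.0811 RPKM have 3 rows each, which is not read as their true level. The median includes all of these genes with several rows. P4ha1, the catalytic subunit that pairs with P4hb in collagen prolyl 4-hydroxylase, stood at 319 ± 33.6 RPKM, and the lysyl hydroxylase Plod3 at 29.5 ± 2.49. All 3 KDEL receptors, which return escaped chaperones from the Golgi, were above 1 RPKM (median 45.1), and Kdelr2 at 287 ± 36.9 was above 100, beside Kdelr3 at 45.1 ± 4.95.

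**Figure D5:**
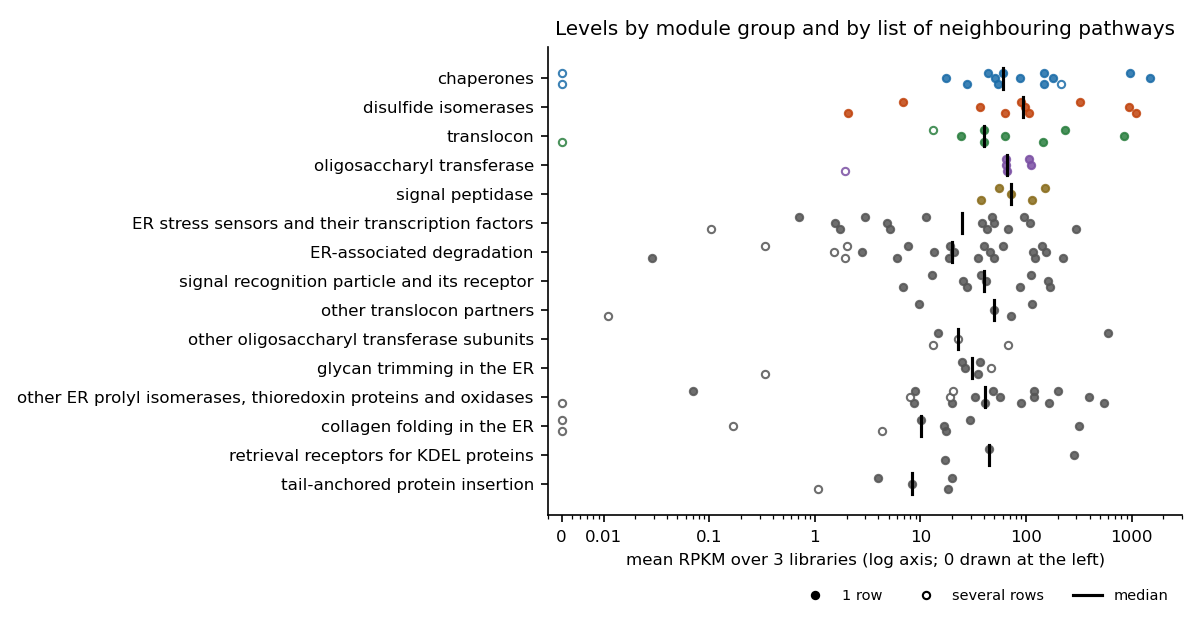
Mean RPKM over 3 libraries (horizontal log axis, 0 drawn at the left) of every gene in the 5 groups of members (coloured) and in 10 lists of neighbouring pathways (grey); open circles are genes with several rows and black bars are medians. Medians of the groups lie between 40.3 and 93.6 RPKM and those of the lists between 8.37 and 50.1. They include genes with several rows, whose number differs between groups and lists, and over members with 1 row the translocon median was 63.8 RPKM.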

How the data were processed

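Transcripts were measured in 3 libraries of 1 group. They were made with a strand-preserving kit from total RNA after removal of ribosomal RNA, per the labels' protocols. TopHat and build mm9 are named, per the submitters' processing notes. For the counting tool, the annotation and the use of strand: not given in the sources used here. The values the authors deposited are whole numbers without normalization and were used as raw counts per transcript row, summed per symbol. RPKM was computed from them with GENCODE M21 lengths, for 23032 symbols with a length: the median over basic transcripts paired with a RefSeq transcript, or over all basic transcripts where none was paired. Levels were tested two-sided against 1 RPKM, 100 RPKM or a reference gene of the group with edgeR 4.0.16 (quasi-likelihood F test with an offset and a Poisson bound, R 4.3.3), Benjamini-Hochberg adjusted over 20996 genes with at least 1 count (20995 against a reference), and the scripts were tested on simulated data. Ratios carry the SD of log2(RPKM + 0.1). Alternatives were limma 3.58.1, DESeq2 1.42.0, TMM-scaled totals, other lengths, row means, a minimum of 10 counts and leaving out each library. The design put first Hspa5 as chaperone reference and replaced a reference with several rows by the next gene. Named genes were the reference, highest and lowest of each group, the paralog pairs, unresolved members and the 2 highest of each list. Members and lists were chosen with earlier results of these data known. Features of the protein sequences were not analysed here.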

Additional observations from a re-analysis of the deposited data

How the results depend on the processing

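The number of members above 1 RPKM was 40 to 42 over the alternatives, against 42, and the number above 100 RPKM was 13 to 18, against 15, without regard to which members were called. The number of disulfide isomerases higher than P4hb was 0 in place of 1 with limma (pseudocount 0.1), without replicate 1, and with the median and the shortest transcript length; it was 0 to 1 with 1 library left out. With either of these lengths, 1 oligosaccharyl transferase gene was higher than Rpn1 and 1 signal peptidase gene higher than Sec11a, in place of 0. The members' share of counts was 2.82% of the total without the 10 highest symbols. Signs turned only with the median or the shortest length. In that order, the log2 values were −0.41 and −1.65 for Pdia4 over P4hb, 0.57 and 2.06 for Erp29 over 100 RPKM, 1.71 and 1.89 for Ssr1 over 100 RPKM, 1.17 and 1.35 for Ssr1 over Sec61a1, 1.27 and 1.54 for Spcs2 over 100 RPKM, and 0.26 and 0.33 for Spcs2 over Sec11a. Dnajb11 over 100 RPKM turned to 0.042 with the shortest length. These lengths differ from the main ones by construction. The median length was added after the data were seen. Leaving out replicate 1 ended 4 calls of single genes (Dnajb11, Erp29 and Stt3a against 100 RPKM, Pdia4 over P4hb) and leaving out replicate 3 ended 2 (Erp29 and Spcs3 against 100 RPKM). No paired analysis was possible because the libraries form 1 group.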
